A study of Mus musculus with 8 samples.

Results

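Costimulatory ligands are surface proteins with which antigen-presenting cells set how strongly a T cell answers to antigen. The mouse genes Cd40, Cd80, Cd86, Cd274, Pdcd1lg2, Icosl, Tnfsf4, Cd70 and Tnfsf9 were followed here in the spleens of lupus-prone mice with and without a deficit in the transcription factor E2-2. They were chosen by function, and each was read from a probe set that the array's annotation assigns to that gene alone. All 9 were among the 19938 genes measured, and 7 of them were among the 14953 genes bright enough to test. Cd40, included here with the ligands, is itself a receptor of antigen-presenting cells, engaged by CD40 ligand on T cells.

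The data were Affymetrix Mouse Gene 1.0 ST arrays of splenocytes, the mixed cells of a spleen digested with collagenase and DNase, with 1 array per labelled mouse. Sle1.3/E2-2het mice (3 arrays) carried Sle1.3 and were haplodeficient for E2-2. Sle1.3 mice (3 arrays), described in the labels as lupus mice, carried Sle1.3 with no stated change of E2-2. Wild-type mice (WT, 2 arrays) carried neither. All were labelled C57/B6, so Sle1.3 was shared by the first 2 groups and the strain background by all 3. The series title describes the plasmacytoid dendritic cells (pDCs) of the haplodeficient mice as non-functional. The labels used here gave no age, no disease stage and neither the allele nor any promoter behind the loss of E2-2. They do not say how the mice of a group were related, so p-values measure the spread between these arrays.

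A T cell that meets antigen needs further signals from the presenting cell. CD80 and CD86 bind the activating receptor CD28 and the inhibitory receptor CTLA-4. PD-L1 (Cd274) and PD-L2 (Pdcd1lg2) bind the inhibitory receptor PD-1, and ICOS ligand (Icosl) on B cells and dendritic cells sustains follicular helper T cells through ICOS. The ligands of the tumour necrosis factor (TNF) family, OX40 ligand (Tnfsf4), CD70 and 4-1BB ligand (Tnfsf9), prolong T cell division and survival. CD40 works in the other direction, since T cells license B cells and dendritic cells through it, in part through NF-kB, and CD80 and CD86 are among the genes that follow. In lupus, these exchanges support the T cell help behind autoantibody production. E2-2, encoded by Tcf4, is required for the identity of pDCs, the main producers of type I interferon.

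Some arrays stood apart. The array of Sle1.3/E2-2het replicate 3 and that of Sle1.3 replicate 3 had lowest intensities of 11.2 and 10.9, against 4.57 to 5.11 on the other 6 arrays, and their median log2 intensity was 6.17, against 5.83 to 5.95. These 2 arrays are called the second set below, and the other 6, which include both WT arrays, the first set. The labels name no batch. Tcf4 read 8.18, 8.13 and 9.25 on the Sle1.3/E2-2het arrays, 8.67, 8.63 and 9.06 on the Sle1.3 arrays and 9.02 and 8.80 on the WT arrays (log2 intensity). The array labelled Sle1.3/E2-2het replicate 3 thus had the highest Tcf4 signal of all 8, and Tcf4 passed no test in the fit to all arrays. On the first-set arrays, which leave that mouse out, Tcf4 fell in Sle1.3/E2-2het against WT (-0.76, adjusted p = 0.00550), and its difference from Sle1.3 was -0.50 (adjusted p = 0.259). The labels do not say which part of the gene was deleted, so the probe set may lie outside it. The genotype label of Sle1.3/E2-2het replicate 3 could not be checked in another way, and this array enters every main comparison of that genotype. For the main calls that involve Sle1.3/E2-2het, first-set values are given too. Xist, transcribed from the inactive X chromosome of females, read 3.79, 4.29 and 11.82 on the Sle1.3/E2-2het arrays, 10.77, 10.68 and 11.90 on the Sle1.3 arrays and 4.12 and 3.75 on the WT arrays. Sle1.3 replicate 3 was labelled male, which its Xist signal goes against. All Sle1.3 arrays were therefore high in Xist and both WT arrays low, so genotype and sex cannot be told apart between these groups. Nor can they for the 2 Sle1.3 genotypes within the first set, where both Sle1.3/E2-2het arrays were low and both Sle1.3 arrays high in Xist. The 2 second-set arrays were both high. Defining markers of B cells (Cd79a, Ms4a1), T cells (Cd3e), dendritic cells (Itgax) and pDCs (Siglech) were present on every array.

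Cd86 and Cd80, the ligands of CD28, had the largest deficits of the 7 tested members in Sle1.3 spleens relative to WT spleens. Both fell in Sle1.3 spleens, Cd86 by a mean factor of 2.68 and Cd80 by 1.95. In Sle1.3/E2-2het spleens, Cd86 lay between the other groups on every array. In whole spleen, fewer cells of a type and less RNA per cell cannot be told apart. Cd86 and Cd80 both lie on chromosome 16, with 43 annotated genes between them.

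Cd86 (gene 12524, probe set 10439312) read 9.19, 9.58 and 9.65 in Sle1.3/E2-2het spleens, against 8.61, 9.04 and 8.66 in Sle1.3 spleens and 10.13 and 10.25 in WT spleens (log2 intensity, as for every level below). No 2 of the 3 groups overlapped. The means were 9.47 ± 0.25, 8.77 ± 0.23 and 10.19 ± 0.082 (SD, n = 3, 3 and 2). The Sle1.3 minus WT difference was -1.42 on the log2 scale (SE 0.21, 95% interval -1.88 to -0.97, limma adjusted p = 0.00758), and it was -1.37 within the first set (adjusted p = 0.00278). It lost its call when either WT array was left out (adjusted p = 0.0726 without replicate 1 and 0.142 without replicate 2). The Sle1.3/E2-2het minus Sle1.3 difference was 0.70 (SE 0.19, 95% interval 0.30 to 1.11), or 1.63-fold, with an adjusted p of 0.430, and so did not pass the test over all genes. By replicate number the 3 differences were 0.58, 0.54 and 0.99, all in the same direction. The third of these is between the arrays of the second set, both high in Xist. With the replicate number as a block, the same difference of 0.70 passed (SE 0.13, adjusted p = 0.0192). It did not pass with the array set as a block (adjusted p = 0.0811), within the first set (0.56, adjusted p = 0.321) or without Sle1.3/E2-2het replicate 3 (0.62, adjusted p = 0.270). Sle1.3/E2-2het minus WT was -0.72 (SE 0.21, adjusted p = 0.0577) and within the first set -0.81 (adjusted p = 0.0109).

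Cd80 (gene 12519, probe set 10435704) read 8.30, 8.41 and 8.40 in Sle1.3/E2-2het spleens, against 8.36, 8.20 and 7.92 in Sle1.3 spleens and 8.84 and 9.41 in WT spleens. The Sle1.3/E2-2het and Sle1.3 arrays overlapped, and all 6 lay below both WT arrays. Sle1.3 minus WT was -0.97 (SE 0.21, 95% interval -1.43 to -0.50, adjusted p = 0.0264), and -0.85 within the first set (adjusted p = 0.0163). This call was lost with labelled sex in the fit (adjusted p = 0.0743), after quantile normalization (0.0501) and without WT replicate 1 (0.0790), WT replicate 2 (0.329), Sle1.3 replicate 1 (0.0599) or Sle1.3 replicate 3 (0.0561). Sle1.3/E2-2het minus Sle1.3 was 0.21 (SE 0.19, 95% interval -0.21 to 0.63), and 0.19 without Sle1.3/E2-2het replicate 3. Against WT, the Sle1.3/E2-2het difference of -0.76 (SE 0.21) had an adjusted p of 0.0542, and on first-set arrays it was -0.77 (adjusted p = 0.0132).

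**Figure D1:**
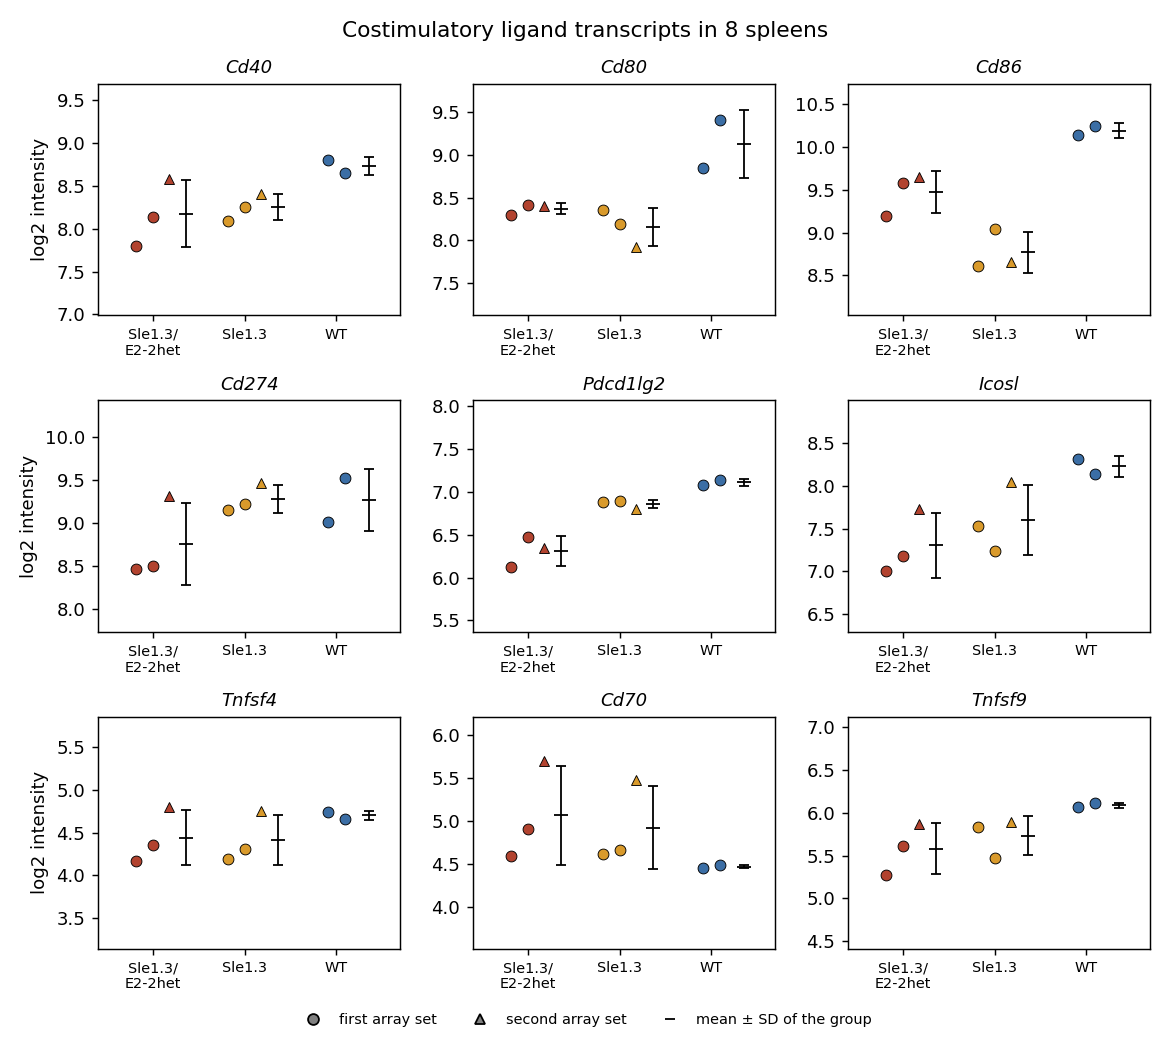
Log2 intensity of the 9 costimulatory genes on each array (1 panel per gene, Sle1.3/E2-2het, Sle1.3 and WT from left to right; circles are first-set arrays, triangles second-set arrays, bars group means). Cd86 separates all 3 groups, with Sle1.3/E2-2het between 9.19 and 9.65, Sle1.3 between 8.61 and 9.04 and WT at 10.13 and 10.25.

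A second probe set of Cd80 (10435712), dimmer on average and for that reason not the one used, gave larger differences. It read 7.85, 7.87 and 7.53 in Sle1.3/E2-2het spleens, against 7.31, 7.20 and 6.88 in Sle1.3 spleens and 8.80 and 9.17 in WT spleens. On it no 2 groups overlapped, the same order as for Cd86. Its Sle1.3 minus WT difference was -1.86 (SE 0.21, adjusted p = 0.00324), against -0.97 on the brighter probe set. Sle1.3/E2-2het minus WT was -1.24 (SE 0.21, adjusted p = 0.0104) and passed, whereas the brighter probe set missed the threshold. Sle1.3/E2-2het minus Sle1.3 was 0.62 (SE 0.19, adjusted p = 0.597). On first-set arrays this probe set was at -1.73 in Sle1.3 minus WT (adjusted p = 0.000527), -1.13 in Sle1.3/E2-2het minus WT (adjusted p = 0.00173) and 0.61 between the Sle1.3 genotypes (adjusted p = 0.196). The table used here does not say which exons either probe set covers, and this look at the second one was added after the data had been seen.

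**Figure D2:**
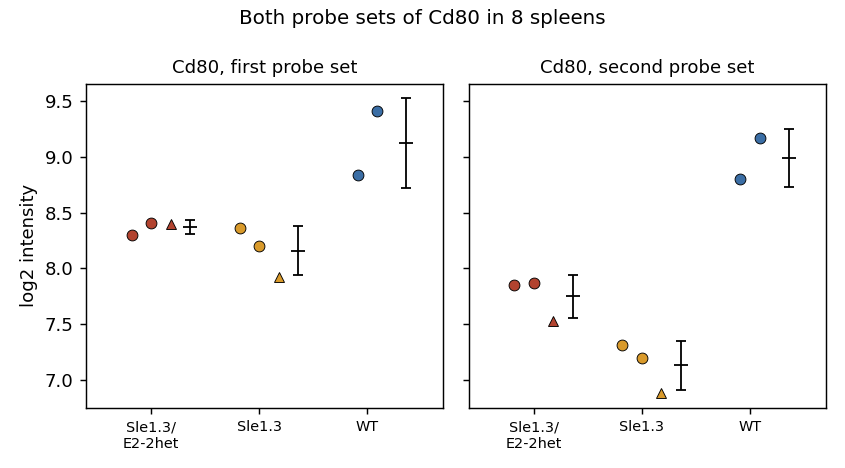
Log2 intensity of the 2 Cd80 probe sets on each array (Sle1.3/E2-2het, Sle1.3 and WT from left to right; circles are first-set arrays, triangles second-set arrays, bars group means). The WT arrays are at 8.80 and 9.17 on the dimmer probe set, where the Sle1.3 arrays lie between 6.88 and 7.31.

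Of the PD-1 ligands, Pdcd1lg2 was lowest in Sle1.3/E2-2het spleens, where it fell by a mean factor of 1.74 relative to WT spleens, and Cd274 passed no test in the fit to all arrays. The 2 genes are neighbours on chromosome 19, with 0 annotated genes between them. The 250 bases before a start site listed by RefSeq are printed because Cd80 and Pdcd1lg2 each passed a test and Cd274 is the neighbour that did not. They are from RefSeq (GRCm38.p6, plus strand), which gave such a window for 4 of the 9 genes in the table used. The windows are chr16:38458683-38458932 for Cd80, chr19:29367188-29367437 for Cd274 and chr19:29410669-29410918 for Pdcd1lg2, written 5′ to 3′ with every E-box (CANNTG), the motif bound by E proteins such as E2-2, in capitals. The Pdcd1lg2 window, and that of Icosl, ends at the 5′ end of the annotated gene, but the start sites listed for Cd80 and Cd274 lie 1503 and 5331 bases inside theirs, so these 2 windows belong to internal starts and are not the sequence upstream of the whole gene.
Cd80: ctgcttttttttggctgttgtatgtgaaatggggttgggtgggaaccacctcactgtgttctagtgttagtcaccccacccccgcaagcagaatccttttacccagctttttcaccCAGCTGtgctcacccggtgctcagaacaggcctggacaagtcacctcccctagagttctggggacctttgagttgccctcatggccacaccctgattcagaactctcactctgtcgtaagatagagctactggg
Cd274: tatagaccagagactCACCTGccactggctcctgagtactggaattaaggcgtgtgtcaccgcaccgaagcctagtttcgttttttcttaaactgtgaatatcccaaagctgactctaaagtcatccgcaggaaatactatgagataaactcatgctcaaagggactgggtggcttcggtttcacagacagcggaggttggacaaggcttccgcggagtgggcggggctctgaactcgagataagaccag
Pdcd1lg2: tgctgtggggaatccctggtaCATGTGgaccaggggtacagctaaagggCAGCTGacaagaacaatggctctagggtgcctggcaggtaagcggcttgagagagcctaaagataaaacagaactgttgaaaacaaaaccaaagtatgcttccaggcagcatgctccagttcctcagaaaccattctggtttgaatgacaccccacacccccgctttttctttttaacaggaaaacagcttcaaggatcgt
Cd80 and Cd274 held 1 E-box each and Pdcd1lg2 held 2. CANNTG was found in 66.2% of the 32851 promoter windows of that length, searched on both strands, so its presence sets none of these genes apart. An NF-kB-like pattern, GGG and CC with any 5 bases between them, was found in 45.8% of windows. It occurred 2 times before Cd80, 0 times before Cd274 and 1 time before Pdcd1lg2, and a gene can carry such sites elsewhere. In Icosl, the other gene with a window, there were 1 E-box and 2 NF-kB-like matches, and no match overlapped an E-box. Neither interferon pattern was in any of the 4, the ISRE form with GAAA on both sides of any 2 bases (3.0% of windows) or the GAS form with TTC and GAA around any 3 bases (7.0%).

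Pdcd1lg2 (gene 58205, probe set 10462398) read 6.12, 6.47 and 6.34 in Sle1.3/E2-2het spleens, against 6.88, 6.90 and 6.80 in Sle1.3 spleens and 7.08 and 7.14 in WT spleens. The 3 groups did not overlap, and here Sle1.3/E2-2het was the lowest. Sle1.3/E2-2het minus WT was -0.80 (SE 0.17, 95% interval -1.19 to -0.42, adjusted p = 0.0255), and -0.82 within the first set (adjusted p = 0.00539). That call was lost with labelled sex in the fit (adjusted p = 0.0546) and without WT replicate 1 (0.120), WT replicate 2 (0.241) or Sle1.3/E2-2het replicate 1 (0.0887). Without Sle1.3/E2-2het replicate 3 it was kept (adjusted p = 0.0173). Sle1.3/E2-2het minus Sle1.3 was -0.55 (SE 0.16, 95% interval -0.89 to -0.21, adjusted p = 0.511), with differences by replicate number of -0.76, -0.43 and -0.46. With the replicate number as a block it passed (adjusted p = 0.0382), while with the array set as a block (adjusted p = 0.0822) or without Sle1.3/E2-2het replicate 3 (-0.56, adjusted p = 0.246) it did not. Sle1.3 minus WT was -0.25 (SE 0.17, 95% interval -0.64 to 0.13).

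Cd274 (gene 60533, probe set 10462390) read 8.46, 8.49 and 9.31 in Sle1.3/E2-2het spleens, against 9.15, 9.22 and 9.47 in Sle1.3 spleens and 9.01 and 9.53 in WT spleens. On the 2 first-set Sle1.3/E2-2het arrays it lay below every other array, while the second-set array of that genotype lay within the range of the others. Sle1.3/E2-2het minus Sle1.3 was -0.53 (SE 0.24, 95% interval -1.06 to 0.01), and -0.71 within the first set (adjusted p = 0.166). Sle1.3/E2-2het minus WT was -0.51 (SE 0.27, adjusted p = 0.226), and -0.79 within the first set, where it passed (adjusted p = 0.00962). Sle1.3 minus WT was 0.01 (SE 0.27, 95% interval -0.59 to 0.61), a value whose sign turned with several settings. Cd274 was the 1 tested member whose Sle1.3 and WT arrays overlapped.

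Icosl (gene 50723, probe set 10364361) read 7.0025, 7.18 and 7.73 in Sle1.3/E2-2het spleens, against 7.53, 7.23 and 8.04 in Sle1.3 spleens and 8.31 and 8.14 in WT spleens. Both WT arrays lay above all 6 others, and the groups that carry Sle1.3 overlapped. In each of these groups the second-set array was the highest. Sle1.3/E2-2het minus WT was -0.92 (SE 0.27), with an adjusted p of 0.0605, and -1.13 within the first set (adjusted p = 0.00172). For Sle1.3 minus WT the difference was -0.62 (SE 0.27, adjusted p = 0.195), and -0.84 within the first set (adjusted p = 0.00901). Sle1.3/E2-2het minus Sle1.3 was -0.30 (SE 0.24, 95% interval -0.83 to 0.23).

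Cd40 (gene 21939, probe set 10478678) read 7.80, 8.14 and 8.58 in Sle1.3/E2-2het spleens, against 8.09, 8.26 and 8.41 in Sle1.3 spleens and 8.81 and 8.65 in WT spleens. As for Icosl, both WT arrays were above all others and the second-set arrays were the highest of their groups. Against WT the Sle1.3/E2-2het difference was -0.56 (SE 0.23, adjusted p = 0.139), and -0.76 within the first set (adjusted p = 0.00831). Sle1.3 minus WT was -0.48 (SE 0.23, adjusted p = 0.236), and -0.55 within the first set (adjusted p = 0.0476). The difference of Sle1.3/E2-2het from Sle1.3 was -0.08 (SE 0.20, 95% interval -0.53 to 0.37), and its sign turned without Sle1.3/E2-2het replicate 1.

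Of the TNF family ligands, Tnfsf9 alone was bright enough to test. Tnfsf9 (gene 21950, probe set 10446229) read 5.27, 5.61 and 5.86 in Sle1.3/E2-2het spleens, against 5.84, 5.47 and 5.89 in Sle1.3 spleens and 6.07 and 6.11 in WT spleens. The WT arrays were again the highest, above all 6 others. Relative to WT, the Sle1.3/E2-2het difference was -0.51 (SE 0.21, adjusted p = 0.149), and -0.65 within the first set (adjusted p = 0.0201). Neither Sle1.3 minus WT (-0.35, SE 0.21, adjusted p = 0.341) nor Sle1.3/E2-2het minus Sle1.3 (-0.15, SE 0.19) passed.

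Tnfsf4 and Cd70 lay below the filter of a mean log2 intensity of 5.01. Cd70 (gene 21948, probe set 10452301), just outside it with a mean of 4.86, read 4.59, 4.91 and 5.70 in Sle1.3/E2-2het spleens, against 4.62, 4.66 and 5.48 in Sle1.3 spleens and 4.46 and 4.48 in WT spleens. Its highest values were those of the second set, whose dim probe sets read higher throughout (25th percentile over all probe sets 5.15 on these 2 arrays, against 4.57 to 4.84 on the other 6). Tnfsf4 (gene 22164, probe set 10351095) read 4.17, 4.35 and 4.80 in Sle1.3/E2-2het spleens, against 4.19, 4.30 and 4.75 in Sle1.3 spleens and 4.74 and 4.66 in WT spleens. No order of the groups can be read from such dim signals. In a fit without the filter neither gene passed, with adjusted p of 0.271 for Cd70 and 0.456 for Tnfsf4 in Sle1.3/E2-2het against WT. Cd70 and Tnfsf9 are neighbours on chromosome 17.

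Over the 7 tested members, the counts were as follows. In Sle1.3/E2-2het against Sle1.3 spleens, 0 members passed by limma, where 0% of all genes passed as higher and 0.0134% as lower, and 2 members (Cd86 and Pdcd1lg2) had an unadjusted p under 0.05. In Sle1.3 against WT spleens, 2 of 7 fell (Cd86 and Cd80), against 3.22% of all genes, and 0 rose, against 2.66%. In Sle1.3/E2-2het against WT spleens, 1 of 7 fell (Pdcd1lg2), against 3.74%, and 0 rose, against 3.46%. These WT comparisons share the WT arrays, and each shares arrays with the comparison of the Sle1.3 genotypes, so their counts are not independent. The median member difference was -0.15 in Sle1.3/E2-2het against Sle1.3, -0.48 in Sle1.3 against WT and -0.72 in Sle1.3/E2-2het against WT, where all genes tested had medians of 0.0017, 0.0268 and -0.0059. Brighter genes read lower as a class. With the filter at the median, which every tested member but Tnfsf9 exceeded, these medians were -0.0433, -0.1106 and -0.1895. The WT arrays also had the widest interquartile ranges (2.77 and 2.97 on the log2 scale, against 2.41 to 2.57 on the others). The part of brightness in the member differences was not tested. By arrays alone, 1 of 7 members was higher without overlap in Sle1.3/E2-2het than in Sle1.3 (Cd86, against 3.04% of all genes) and 1 was lower (Pdcd1lg2, against 4.33%). All 7 but Cd274 were lower without overlap in both WT comparisons, against 23.2% of all genes in Sle1.3/E2-2het and 24.4% in Sle1.3, and 0 were higher, against 25.9% and 21.5%.

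The array set bore on these counts. Within the first set, with 2 arrays a group, 7 of 7 members fell in Sle1.3/E2-2het against WT, where 23.5% of all genes fell and 10.4% rose. In Sle1.3 against WT, 4 of 7 fell (Cd40, Cd80, Cd86 and Icosl), where 10.6% of all genes fell and 4.96% rose. None of the 7 passed between the Sle1.3 genotypes there, where 0.161% rose and 0.428% fell. With the replicate number as a block, 1 member rose (Cd86) and 1 fell (Pdcd1lg2) in Sle1.3/E2-2het against Sle1.3, where 0.548% of all genes rose and 1.2% fell. Single arrays moved the counts too. Against WT, 6 members of Sle1.3/E2-2het spleens passed without Sle1.3/E2-2het replicate 3 and 4 without Sle1.3 replicate 3, but 0 without Sle1.3/E2-2het replicate 1 or either WT array. For Sle1.3 against WT, 1 passed without Sle1.3 replicate 1 or 3 and 0 without either WT array.

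**Figure D3:**
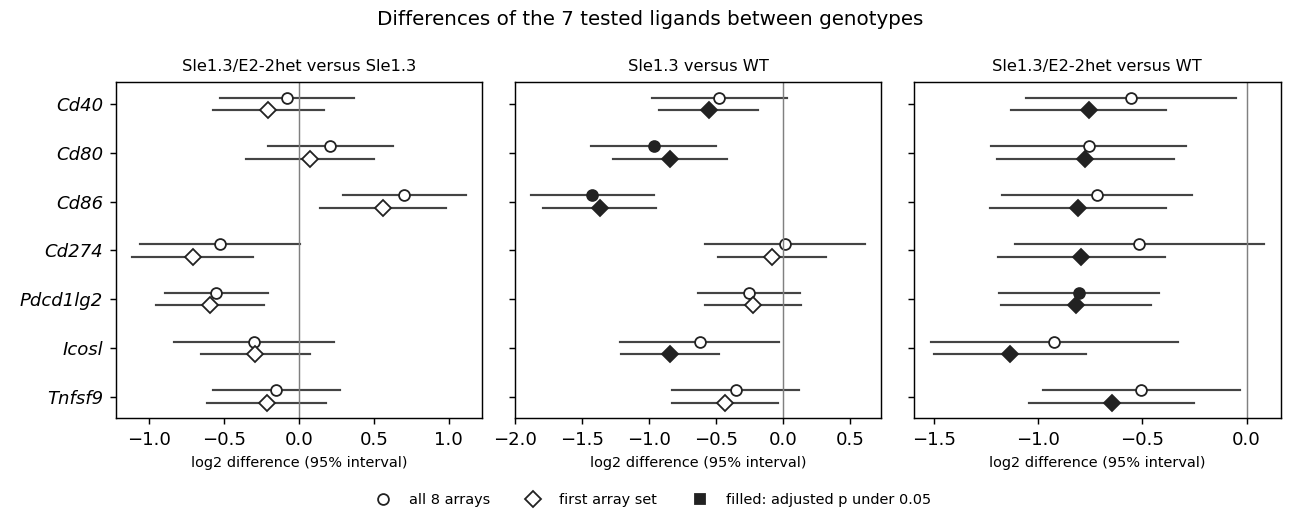
Log2 differences of the 7 tested members in the 3 comparisons, with 95% intervals from limma, for the fit to all 8 arrays (circles) and for the first-set arrays alone (diamonds; filled symbols have an adjusted p under 0.05). In Sle1.3 against WT the Cd86 interval, -1.88 to -0.97, is the farthest below 0, while that of Cd274 spans -0.59 to 0.61.

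Some members varied together over the 8 arrays, which is a description only, since the arrays share 3 groups and 2 array sets. Icosl and Tnfsf9 were the closest pair (Pearson r = 0.9336), followed by Cd40 with Icosl (0.8928), and Cd80 with Cd86 reached 0.8455. The value for Cd86 with Cd274 was 0.01076. Of all genes tested, those most like Cd86 over the 8 arrays were Slc20a1, a phosphate transporter (0.9925), Bcl2l11, the pro-apoptotic protein BIM (0.9902), and 1700109H08Rik (0.9897). Gpalpp1 (0.9823), Clpx, a mitochondrial chaperone subunit (0.9812), and Lin54, a DNA-binding subunit of the DREAM complex (0.9729), were the most like Cd80. For Pdcd1lg2 they were Arfgap3, a regulator of Golgi transport (0.9819), Rangap1, an activator of the Ran GTPase (0.9615), and Gzmk, a granzyme of cytotoxic lymphocytes (0.9473).

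The T cell receptors of these ligands were all measured, and 8 of 8 were bright enough to test. Between the Sle1.3 genotypes 0 of 8 passed by limma (4 at an unadjusted p under 0.05). Even so, Pdcd1, Ctla4, Tnfrsf4 and Cd40lg (CD40 ligand) were lower in Sle1.3/E2-2het on the arrays paired by replicate number. Pdcd1, which encodes PD-1, read 6.96, 6.64 and 7.71 in Sle1.3/E2-2het spleens, against 8.23, 8.11 and 8.31 in Sle1.3 spleens and 8.03 and 8.03 in WT spleens. Sle1.3/E2-2het was the lowest group for it, without overlap. The Sle1.3/E2-2het minus Sle1.3 difference was -1.11 (SE 0.24, adjusted p = 0.243). It passed with the replicate number as a block (adjusted p = 0.00419) and within the first set (-1.36, adjusted p = 0.00421), where the genotypes also differ in Xist. On the second-set arrays, both high in Xist, Pdcd1 read 7.71 in Sle1.3/E2-2het and 8.31 in Sle1.3.

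Ctla4, the inhibitory receptor of CD80 and CD86, read 8.46, 8.74 and 9.32 in Sle1.3/E2-2het spleens, against 9.65, 9.64 and 9.85 in Sle1.3 spleens and 8.98 and 9.18 in WT spleens. The Sle1.3 arrays were the highest, and Sle1.3/E2-2het overlapped with WT. Sle1.3/E2-2het minus Sle1.3 was -0.88 (SE 0.21, adjusted p = 0.337), passing with the replicate block (adjusted p = 0.00697) and within the first set (-1.05, adjusted p = 0.0162). Tnfrsf4, the OX40 receptor, read 7.76, 7.27 and 8.69 in Sle1.3/E2-2het spleens, against 8.70, 8.59 and 8.87 in Sle1.3 spleens and 8.97 and 8.84 in WT spleens, a difference between the Sle1.3 genotypes of -0.81 (SE 0.29) that passed with the replicate block (adjusted p = 0.0365) and within the first set (-1.13, adjusted p = 0.0193). The second-set array of Sle1.3/E2-2het was the highest of its group for Pdcd1, Ctla4 and Tnfrsf4. It was also the highest for T cell markers, of which the 12 not shared with other lists summed to 4659, 4507 and 7397 in Sle1.3/E2-2het spleens, against 4815, 5880 and 5539 in Sle1.3 spleens and 6313 and 7079 in WT spleens. Of 14 T cell genes, 0 passed between the Sle1.3 genotypes (3 at an unadjusted p under 0.05 by limma). Germinal centre B cell markers (8 genes) summed to 891 to 1029 in Sle1.3/E2-2het spleens, 1447 to 2086 in Sle1.3 spleens and 1284 to 1336 in WT spleens. Of these 8, 1 fell in Sle1.3/E2-2het against Sle1.3 (Gcsam, -1.65, adjusted p = 0.0432), and 6 did with the replicate block. The shares of all genes were 0.0134% and 1.2%. The part of either cell type in the receptor levels was not tested.

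Against WT, 2 of 8 receptors fell in Sle1.3/E2-2het spleens, where 3.74% of all genes fell. Tnfrsf9, the 4-1BB receptor, read 7.69, 7.58 and 8.19 in Sle1.3/E2-2het spleens, against 8.76 and 8.75 in WT spleens, a difference of -0.94 (SE 0.20, adjusted p = 0.0263) that was -1.12 within the first set (adjusted p = 0.00115). Cd27, the receptor of CD70, read 8.55, 8.06 and 8.88 in Sle1.3/E2-2het spleens, against 9.55 and 9.24 in WT spleens, a difference of -0.90 (SE 0.24, adjusted p = 0.0466), or -1.09 within the first set (adjusted p = 0.00353). On first-set arrays 6 of 8 receptors fell in this comparison, where 8 of 14 T cell markers and 23.5% of all genes did. In Sle1.3 against WT spleens, 0 of 8 passed, with 4 at an unadjusted p under 0.05, and within the first set 2 fell and 1 rose. In the fit to all arrays, Tnfrsf9 (-0.76, adjusted p = 0.0527) and Cd27 (-0.87, adjusted p = 0.0555) had the lowest p of Sle1.3 against WT. Cd28 and Icos, the activating receptors of CD80, CD86 and ICOS ligand, had Sle1.3/E2-2het minus Sle1.3 differences of -0.08 (SE 0.27) and -0.11 (SE 0.18). Cd40lg, the CD40 ligand, had one of -0.52 (SE 0.19), and its adjusted p with the replicate block was 0.0690. It read 5.79, 6.06 and 6.42 in Sle1.3/E2-2het spleens, against 6.65, 6.47 and 6.72 in Sle1.3 spleens and 6.05 and 6.21 in WT spleens. The Sle1.3 arrays were the highest, without overlap.

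**Figure D4:**
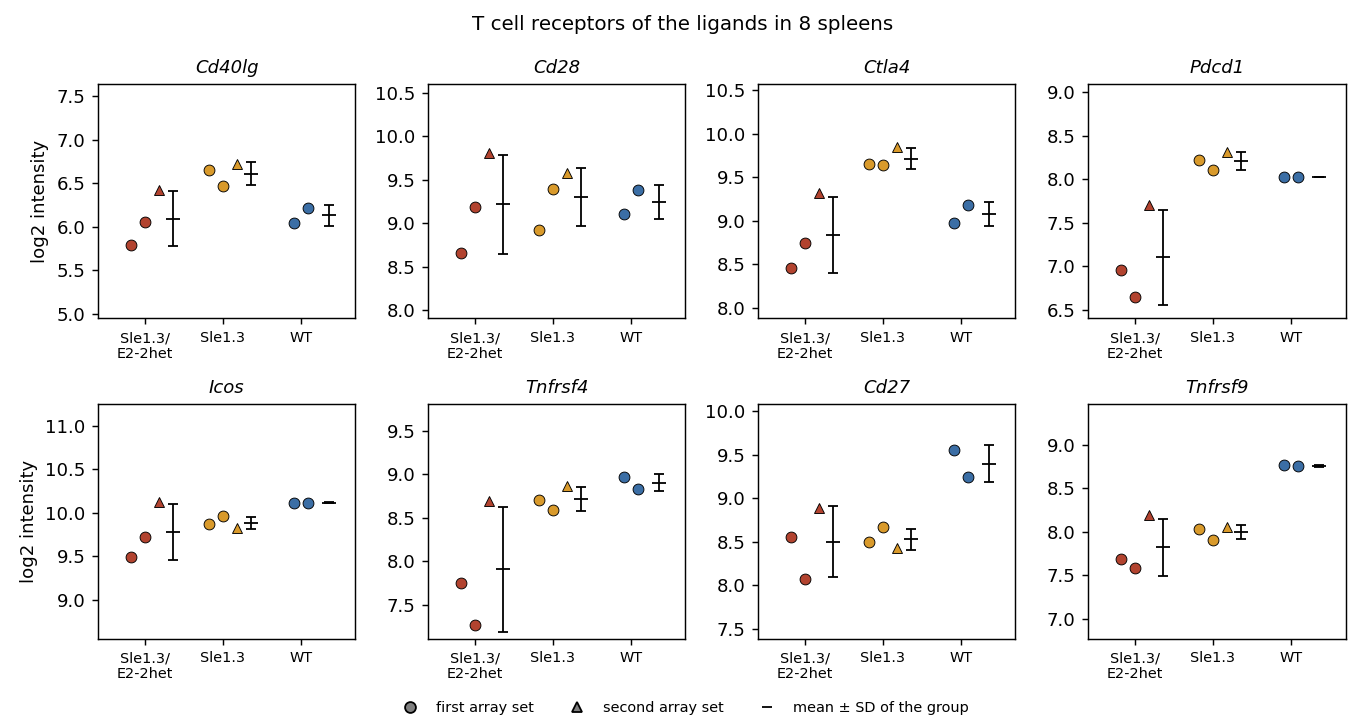
Log2 intensity of the 8 receptor genes on each array (Sle1.3/E2-2het, Sle1.3 and WT from left to right; circles are first-set arrays, triangles second-set arrays, bars group means). Pdcd1 lies between 6.64 and 7.71 in Sle1.3/E2-2het and between 8.11 and 8.31 in Sle1.3.

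Several genes of CD40 and NF-kB signalling fell in both Sle1.3 genotypes relative to WT. Of 18 listed, 15 were measured and tested, and 0 passed in Sle1.3/E2-2het against Sle1.3, also at an unadjusted p under 0.05 (median -0.08). In Sle1.3 against WT, 5 fell and 0 rose, where 3.22% of all genes fell and 2.66% rose. The list median was -0.62. The genes that fell were led by Bcl3, a nuclear co-factor of NF-kB (-1.46, SE 0.23, adjusted p = 0.00869), and Rela, the p65 subunit (-1.08, adjusted p = 0.0332). Next came Map3k14, the NIK kinase downstream of CD40 (-0.81, adjusted p = 0.0407), and Relb, an NF-kB subunit of the non-canonical pathway (-0.76, adjusted p = 0.0395). Relative to WT, 6 fell and 0 rose in Sle1.3/E2-2het (list median -0.66), among them Bcl3 (-1.46, adjusted p = 0.00848) and the adaptor Traf1 (-0.89, adjusted p = 0.0309). In that comparison 3.74% of all genes fell and 3.46% rose. Bcl3 read 8.31, 7.82 and 8.42 in Sle1.3/E2-2het spleens, against 8.34, 8.07 and 8.12 in Sle1.3 spleens and 9.89 and 9.39 in WT spleens. All 6 arrays with Sle1.3 lay below both WT arrays, as for Cd80, but Sle1.3/E2-2het and Sle1.3 did not separate as they did for Cd86. Within the first set, 11 fell in Sle1.3/E2-2het against WT and 8 in Sle1.3 against WT, where 23.5% and 10.6% of all genes fell.

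The antigen presentation machinery gave no calls in the fit to all arrays. Of 14 listed genes of the MHC class II pathway, 12 were measured, and 0 passed in each comparison, with list medians of -0.13 in Sle1.3/E2-2het against Sle1.3, -0.0072 in Sle1.3 against WT and -0.25 in Sle1.3/E2-2het against WT. An unadjusted p under 0.05 was found for 1, 1 and 2 of the 12 in these comparisons. On first-set arrays, 6 of 12 fell in Sle1.3/E2-2het against WT, where 23.5% of all genes fell. In Sle1.3 against WT 1 of 12 fell there, where 10.6% of all genes fell. Between the Sle1.3 genotypes 0 passed on first-set arrays, and 1 fell with the replicate block. By limma the smallest p belonged, between the Sle1.3 genotypes, to Rfx5 (-0.47, adjusted p = 0.845) and, in the WT comparisons, to Marchf1, the ubiquitin ligase that removes MHC class II and CD86 from the cell surface. Marchf1 had differences of 0.53 (adjusted p = 0.141) in Sle1.3/E2-2het and 0.57 (adjusted p = 0.148) in Sle1.3 relative to WT.

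Markers of cells that can carry these ligands, and of other spleen cells, are given beside the members as sums of linear intensity over each list. The 9 members summed to 1752 to 2589 in Sle1.3/E2-2het spleens, 1961 to 2201 in Sle1.3 spleens and 3114 to 3576 in WT spleens. The 12 measured B cell markers summed to 15350 to 24130, 17750 to 22030 and 20870 to 24850 in the same groups, and 1 of 12 fell against WT in each genotype (Ebf1 in Sle1.3/E2-2het, Fcer2a in Sle1.3). The shares of all genes that fell were 3.74% in Sle1.3/E2-2het and 3.22% in Sle1.3. On first-set arrays, 7 of 12 fell in Sle1.3/E2-2het and 4 of 12 in Sle1.3 against WT, where 23.5% and 10.6% of all genes fell. Conventional dendritic cell markers not shared with other lists (13 genes) summed to 2127 to 2861 in Sle1.3/E2-2het spleens, 2118 to 2581 in Sle1.3 spleens and 2437 to 2820 in WT spleens. The overlap with WT came from the second-set arrays. On first-set arrays the WT sums lay above all others for B cells (15351 and 16319 in Sle1.3/E2-2het, 17751 and 18510 in Sle1.3) and for dendritic cells (2127 and 2235, 2118 and 2280), as they did for the members. The first-set arrays of the Sle1.3 genotypes were at 52.4% to 62.2% of the WT mean for the members, 67.2% to 81.0% for B cell markers and 80.6% to 86.8% for dendritic cell markers, with no test of the difference between lists. The brightest genes in the dendritic cell sum on the WT arrays were Dtx1 (9.58 and 9.41) and Irf8 (9.03 and 9.01). They weigh most in that sum, so its percentages need not follow the other dendritic cell genes or the number of these cells.

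Of the 15 measured conventional dendritic cell genes, 13 were tested. On first-set arrays, 3 of 13 fell against WT in each Sle1.3 genotype, and 1 rose in Sle1.3/E2-2het against Sle1.3. Of all genes, 23.5% fell against WT there in Sle1.3/E2-2het and 10.6% in Sle1.3. In the fit to all arrays a single dendritic cell gene passed. Cd209a, a lectin of conventional dendritic cells and their monocyte-derived kin, read 8.24, 8.45 and 8.43 in Sle1.3/E2-2het spleens, against 7.28, 6.96 and 6.34 in Sle1.3 spleens and 8.25 and 8.72 in WT spleens. It fell in Sle1.3 against WT (-1.63, SE 0.26, adjusted p = 0.00977), where 3.22% of all genes fell. Its Sle1.3/E2-2het minus Sle1.3 difference was 1.51 (SE 0.24, adjusted p = 0.0982), passing with the replicate block (adjusted p = 0.00174) and within the first set (1.22, adjusted p = 0.0187). Like Cd86, it was lowest on the Sle1.3 arrays, without overlap.

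pDC markers not shared with other lists (13 genes) summed to 3184 to 4492 in Sle1.3/E2-2het spleens. The sums were 3183 to 3740 in Sle1.3 spleens and 5205 to 5442 in WT spleens. WT lay above the rest, as for the member sum. The brightest genes in this sum on the WT arrays were Spib (10.86 and 10.40), Ly6d (10.75 and 10.95) and Tlr9 (9.38 and 9.04). No other read above 8.05 there, so these genes weigh most in the sum. Over the 14 measured pDC genes, the median difference from WT was only -0.14 in each Sle1.3 genotype. Of the 14 measured pDC genes, 3 fell in Sle1.3/E2-2het against WT (Spib, Tlr9 and Ccr9), 3 fell in Sle1.3 against WT (Spib, Ccr9 and Siglech), and 0 passed between the Sle1.3 genotypes. In the same fit 3.74% of all genes fell against WT in Sle1.3/E2-2het and 3.22% in Sle1.3. Within the first set 5 fell against WT in each genotype, where 23.5% of all genes fell in Sle1.3/E2-2het and 10.6% in Sle1.3. Natural killer cell markers (12 genes) summed to 2408 to 3244, 2060 to 2276 and 3435 to 3480 in the order Sle1.3/E2-2het, Sle1.3 and WT. Neutrophil and precursor markers (17 genes) ran the other way, at 10480 to 28350 in Sle1.3/E2-2het spleens, 9435 to 31710 in Sle1.3 spleens and 2718 to 3564 in WT spleens, with 11 of 17 higher than WT in Sle1.3/E2-2het and 14 of 17 in Sle1.3 (14 in each on first-set arrays). Splenic macrophage markers (14 genes) summed to 3173 to 5217, 2763 to 3768 and 1639 to 2369 in that order of groups. Monocyte markers (12 genes) summed to 5783 to 8924, 5284 to 9513 and 5836 to 5891. Of these 12, 4 rose and 0 fell in Sle1.3 against WT, and 0 passed in Sle1.3/E2-2het against WT. Between the Sle1.3 genotypes, 1 monocyte marker fell, where 0.0134% of all genes fell. Erythroid precursor markers (9 genes) summed to 1601 to 2979, 702 to 1032 and 736 to 771. Relative to WT, 7 of these 9 rose in Sle1.3/E2-2het and 1 in Sle1.3. In the fit to all arrays 3.46% of all genes rose against WT in Sle1.3/E2-2het and 2.66% in Sle1.3. On first-set arrays these shares were 10.4% and 4.96%. The part of these cell type differences in the levels of the costimulatory genes was not tested.

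**Figure D5:**
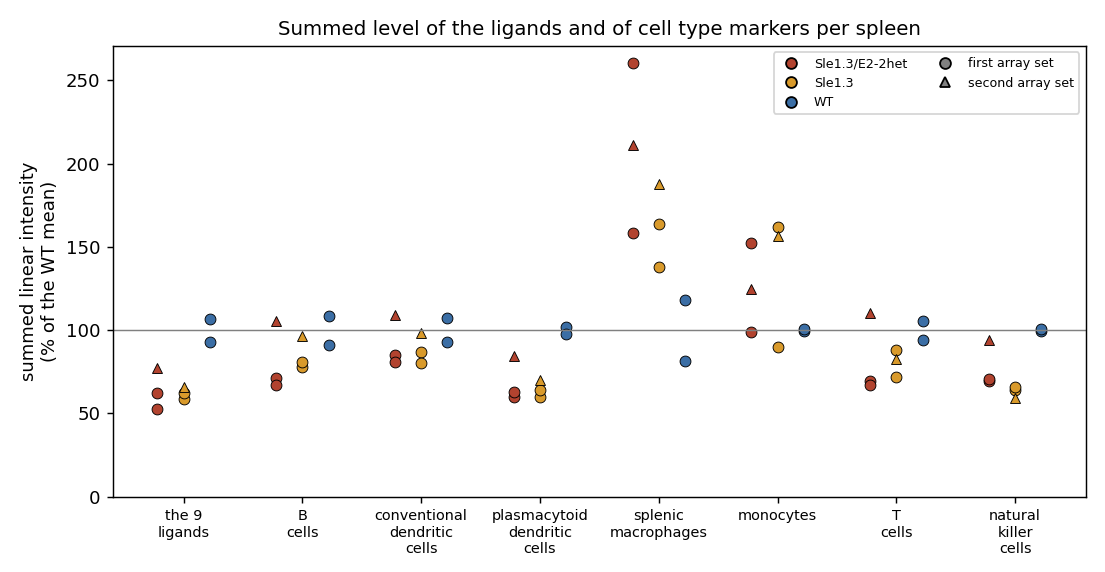
Sum of linear intensity over each marker list on each array (genes that belong to a single list), by group (Sle1.3/E2-2het, Sle1.3 and WT from left to right; circles are first-set arrays, triangles second-set arrays). For the members, the WT arrays, at 93.1% and 106.9%, lie above all other arrays. For splenic macrophage markers, the WT arrays, at 81.8% and 118.2%, lie below all others.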

How the data were processed

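The authors deposited 1 value per probe set and array for 35556 probe sets, an intensity on a linear scale. RMA and Affymetrix Expression Console are named in the submitters' processing notes, with no version, role or genome build. Per the labels' protocols, 250 ng of total RNA was labelled per sample. The deposited intensities were used as they stand and log2 was taken here. Probe sets assigned to 1 gene (21789) were kept, those of several genes (1621) or none (12146) left out, and 1 probe set, the brightest on average, stood for each of 19938 genes. Genes whose mean log2 value exceeded the 25th percentile (5.01) were tested, 14953 in all. The table gives no background level or detection call, and precision is limited by how few arrays there are.

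limma 3.58.1 in R 4.3.3 (lmFit, eBayes, two-sided, 5 residual degrees of freedom) was fitted to all 8 arrays with the group as the only term. Labelled sex was left out because the Xist signal of 1 mouse goes against its label. It also coincides with the array set within each Sle1.3 genotype. First-set mice were labelled female in Sle1.3 and male in Sle1.3/E2-2het, second-set mice the reverse, and both WT mice male. A call lost with labelled sex in the fit therefore cannot be read as an adjustment for sex alone. The p-values were adjusted by Benjamini-Hochberg across the genes tested, at a threshold of 0.05, and "fell", "rose" and "passed" refer to it. The fit was tested on simulated data. Arrays of equal number in both Sle1.3 genotypes deviated together (r = 0.573, 0.369 and 0.618 across genes). Those of unlike number had r from -0.536 to 0.119. The numbers were therefore taken to pair these 2 groups, a reading from the data rather than the labels. The block was thus applied to the same data from which it was read. Deviations are taken from group means, so these r are not independent. For replicate 3, pairing and the second array set cannot be told apart. The 2 WT arrays allow no such decision.

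All 9 members are named. Of other lists, up to 4 genes past the threshold, or else the 2 with the smallest p, are named, receptors excepted, which all may be. The 3 genes most like each member past the threshold are also named. The members and lists, which covered the receptors, related families, CD40 and NF-kB signalling, MHC class II and cell type markers, were chosen with earlier results of these data known. Alternatives were labelled sex, replicate number or array set in the fit, the first array set alone, median centring, quantile normalization, other filters, the mean of a gene's probe sets, an intensity trend in eBayes, and leaving out each array. Listed genes without a single-gene probe set were not analysed here.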

Additional observations from a re-analysis of the deposited data

How the results depend on the processing

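The counts of genes called varied widely with the settings, while no tested member but Cd274 changed direction against WT. Genes higher and lower are written as a pair. In Sle1.3/E2-2het against Sle1.3 (0 and 2 genes, with 625 genes at an unadjusted p under 0.05 by limma), the counts were 82 and 180 with the replicate block (members 1 and 1), 23 and 69 with array set in the fit, 24 and 64 on first-set arrays alone, 3 and 23 after median centring, 1 and 18 after quantile normalization and 4 and 9 with the filter at the median. With labelled sex, and with no filter, 0 were lower. In Sle1.3 against WT (398 and 481, with 2 members lower), they were 79 and 120 with labelled sex (1 member), 1374 and 3036 with the replicate block (5), 1115 and 2470 with array set in the fit (4), 741 and 1590 on first-set arrays (4) and 640 and 1868 after median centring (4). Quantile normalization left 1 member lower, no filter 258 genes lower, and the filter at the median 233 genes higher. In Sle1.3/E2-2het against WT (517 and 559, with 1 member lower), they were 256 and 236 with labelled sex (0 members), 1918 and 4090 with the replicate block (7), 1599 and 3493 with array set in the fit (7), 1549 and 3507 on first-set arrays (7) and 788 and 3343 after median centring (7). Quantile normalization gave 848 genes lower (4 members), no filter 237 lower, the filter at the median 207 higher (2 members) and the mean of a gene's probe sets 2 members lower. Median centring moved the median of all genes to -0.1723 in Sle1.3/E2-2het against WT, from -0.0059, and to -0.0978 in Sle1.3 against WT, from 0.0268. Leaving out 1 array gave 0 to 23 genes higher and 0 to 57 lower in Sle1.3/E2-2het against Sle1.3, 1 to 706 and 1 to 953 in Sle1.3 against WT (members 0 to 2) and 3 to 905 and 2 to 1957 in Sle1.3/E2-2het against WT (members 0 to 6). Where a WT array was left out, the lone WT array was assumed to vary like the other groups. The Sle1.3 minus WT difference of Cd274 turned to -0.17 with labelled sex, the replicate block or array set in the fit, to -0.084 on first-set arrays and to -0.11 after median centring. It ranged from -0.25 (without WT replicate 1) to 0.27 (without WT replicate 2) when 1 array was left out. Without Sle1.3/E2-2het replicate 1, the Sle1.3/E2-2het minus Sle1.3 differences of Cd40 and Tnfsf9 turned to 0.11 and 0.0053, the upper ends of ranges that began at -0.28 and -0.29. The causes of these changes were not tested. Same-numbered arrays of WT and the other groups correlated at -0.0768 and 0.214 (Sle1.3) and 0.151 and 0.16 (Sle1.3/E2-2het) in their deviations, which is no basis for pairing with 2 WT arrays, so the block results against WT rest on a shared number alone.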

Other observations

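Other ligands and receptors of the B7 and TNF families and their kin, outside the 9 costimulatory genes, were followed as a list of 23, of which 19 were bright enough to test. Of these, 0 passed in Sle1.3/E2-2het against Sle1.3 spleens in the fit to all arrays, by limma, and 2 had an unadjusted p under 0.05. The largest of those differences was that of Tnfsf8, the CD30 ligand, which is made mainly by activated T cells. Tnfsf8 read 5.90, 6.15 and 6.96 in Sle1.3/E2-2het spleens, against 7.94, 7.995 and 7.94 in Sle1.3 spleens and 7.55 and 7.79 in WT spleens (log2 intensity). Its Sle1.3/E2-2het minus Sle1.3 difference was -1.62 (SE 0.24, adjusted p = 0.0982), and it passed with the replicate block (adjusted p = 0.000732) and within the first array set (-1.94, adjusted p = 0.000315). It fell in Sle1.3/E2-2het against WT (-1.33, SE 0.27, adjusted p = 0.0212).

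Against WT, 3 of 19 fell and 0 rose in each Sle1.3 genotype, with list medians of -0.13 in Sle1.3/E2-2het and 0.15 in Sle1.3. The shares of all genes that fell and rose were 3.74% and 3.46% in Sle1.3/E2-2het, and 3.22% and 2.66% in Sle1.3. On first-set arrays 6 fell in Sle1.3/E2-2het and 3 in Sle1.3, where 23.5% and 10.6% of all genes fell. In Sle1.3/E2-2het against Sle1.3, 2 fell there, against 0.428% of all genes. Pvr, the CD155 ligand of the receptors CD226 and TIGIT, read 7.08, 7.06 and 7.51 in Sle1.3/E2-2het spleens, against 8.44 and 8.63 in WT spleens (-1.32, SE 0.21, adjusted p = 0.00891, and -1.46 on first-set arrays). In Sle1.3 spleens Pvr read 7.14, 7.55 and 7.16, and fell against WT as well (-1.25, adjusted p = 0.0111). Tnfrsf18, the GITR receptor of regulatory and activated T cells, fell in both (-0.83, adjusted p = 0.0398 in Sle1.3/E2-2het, -1.02 on its first-set arrays, and -0.95, adjusted p = 0.0255 in Sle1.3). Havcr2, which encodes the inhibitory receptor TIM-3, fell in Sle1.3 (-1.29, SE 0.32, adjusted p = 0.0424). Its WT arrays read 7.80 and 9.09, farther apart than the arrays of either other group. The WT comparisons share the WT arrays.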
